A study of Drosophila melanogaster with 2 samples.

Results

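The 6 genes described here encode proteins that bend, open or coat chromatin: HmgZ and HmgD (high mobility group proteins Z and D), Dsp1 (Dorsal switch protein 1), Ssrp and dre4 (the subunits of the histone chaperone FACT) and D1 (a chromosomal protein of AT-rich DNA). They were taken as a list of names, 6 of 18277 annotated genes and of 13968 protein-coding genes. HmgZ was chosen by the signal of its peak, already known to rank among the strongest, and the others for their kinship with it, so signals and ranks are given as a description. For each gene, every peak summit was collected from 5 kb upstream of its start to 5 kb downstream of its end.

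The peaks come from chromatin immunoprecipitation with sequencing (ChIP-seq) of Usf, a basic helix-loop-helix leucine zipper factor. All samples were one kind of material, whole Drosophila melanogaster embryos collected from 0 to 16 hours, both sexes together, of a transgenic strain named Usf-GFP. This strain stably carries Usf with green fluorescent protein (GFP) at its C terminus, and the antibody used for the pull-down was against GFP. There were 2 biological replicates, numbered 3 and 4, and no wild-type, untagged or input library was analysed here. A signal from whole embryos mixes all cell types and ages in the collection, and the promoter that drives the tagged gene is not given in the sources used here.

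HMG-box proteins hold a fold that slips into the minor groove and bends DNA sharply. HmgD and HmgZ carry a single such box each and are the fly's abundant, sequence-independent relatives of vertebrate HMGB proteins. HmgD is known as a major chromatin component of the early embryo, before linker histone H1 accumulates. Dsp1 carries a pair of boxes and acts as a co-repressor with Dorsal and with Polycomb group proteins. FACT takes apart and rebuilds nucleosomes ahead of and behind polymerases: Ssrp is its HMG-box subunit, and dre4 is the fly Spt16, its large subunit, which lacks an HMG box. D1 has AT-hooks instead of an HMG box and binds AT-rich satellite DNA. Usf proteins of vertebrates bind the E-box CACGTG, a case of the wider E-box pattern CANNTG, where N is any base.

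Sequence is shown for 3 of the peaks, at Dsp1 and dre4, to show the bases at and beside the summits; at dre4 the sequence past the gap, in CG13937, is not shown. All 3 are plus-strand sequence of the Release 6 genome, whose coordinates are those of dm6, and capitals mark matches to CANNTG. The first runs 100 bp to each side of the stronger Dsp1 summit (chrX:16332906-16333106), in an intron of the neighbouring gene CG9921. The second runs 100 bp to each side of the weaker Dsp1 summit (chrX:16335273-16335473), in an intron of Dsp1. In both, the summit is the middle base. The third is the whole intergenic gap before dre4 (chr3L:1876313-1876550), where the summit is base 232 and transcription of dre4 runs leftward from the left end.
Dsp1, stronger summit: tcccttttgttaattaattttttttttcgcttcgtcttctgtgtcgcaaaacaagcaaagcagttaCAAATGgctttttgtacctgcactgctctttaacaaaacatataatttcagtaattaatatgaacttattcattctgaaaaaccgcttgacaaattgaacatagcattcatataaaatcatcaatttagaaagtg
Dsp1, weaker summit: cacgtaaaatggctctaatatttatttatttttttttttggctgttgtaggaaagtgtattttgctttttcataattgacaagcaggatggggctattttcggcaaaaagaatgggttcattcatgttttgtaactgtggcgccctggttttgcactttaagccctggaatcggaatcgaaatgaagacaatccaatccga
dre4, intergenic gap: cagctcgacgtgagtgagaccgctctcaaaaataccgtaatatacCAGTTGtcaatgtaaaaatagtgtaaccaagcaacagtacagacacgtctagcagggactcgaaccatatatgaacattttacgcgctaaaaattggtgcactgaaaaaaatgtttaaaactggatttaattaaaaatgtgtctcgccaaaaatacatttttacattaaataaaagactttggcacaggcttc
The stronger Dsp1 window was 29.9% G and C and held an unbroken run of 18 A and T bases. The weaker Dsp1 window was 37.3% G and C, with a longest A and T run of 24 bases and no CANNTG. The dre4 gap as a whole was 36.1% G and C with a longest A and T run of 14 bases, and its capitalised CAGTTG lay too far from the summit to count in the motif search described later.

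Each peak in the deposited lists has a signal made by the authors and a summit. The strict list rests on the irreproducible discovery rate (IDR), which favours peaks ranked alike in separate replicates, and held 2767 peaks with signals from 71.3 to 1798 and a median of 118.9. They were the 2767 strongest of the 21315 peaks in the relaxed list called on pooled reads. The relaxed lists of replicates 4 and 3 held 29246 and 28459 peaks, and all relaxed lists contain background by design. The scale of the signal is not stated, so signals and ranks are read within a list. Read depth was unknown.

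Of the 6 genes, 3 had an IDR summit no more than 1 kb from a transcription start site (TSS), namely HmgZ, Dsp1 and dre4, against 15.3% of all coding genes. HmgD, Ssrp and D1 had none. With a limit of 500 bp, met by 1854 of the 13968 coding genes against 2131 within 1 kb, dre4 alone kept its summit. Those of HmgZ and Dsp1 lay 530 bp or more from a TSS. The count over the 6 genes is a description, since HmgZ was known to have a peak when the list was made. Widening the search to the whole gene with 5 kb on each side added HmgD, through the same summits as HmgZ, which it overlaps. This gave 4 of 6 genes against 35.4% of coding genes, with no summit at a further locus. In the pooled relaxed list 4 of 6 genes had a summit within 1 kb of a TSS, against 48.2% of coding genes. In replicate 4 it was 5 of 6 against 55.4%, and in replicate 3 it was 4 of 6 against 54.8%. Within 5 kb, the relaxed lists touched 5 of 6 genes in the pooled list against 88.0% of coding genes, and 6 of 6 in replicates 4 and 3 against 93.8% and 93.7%. A relaxed summit somewhere near a gene is thus the usual state of a fly gene and sets none of the 6 apart.

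**Figure D1:**
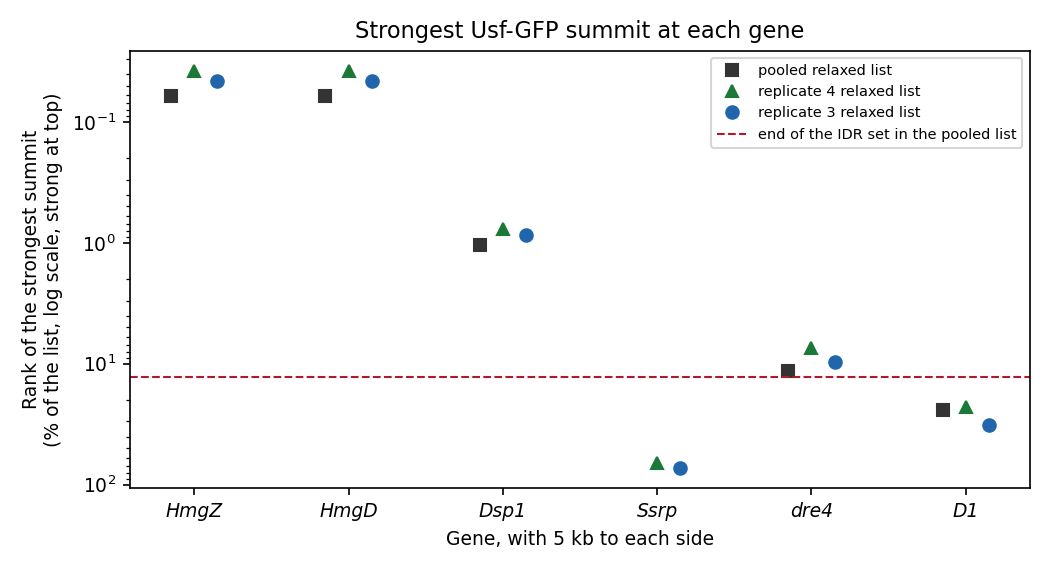
Rank of the strongest summit within 5 kb of each gene, as a percent of the list, on a log axis with strong peaks at the top. Squares are the pooled list, triangles replicate 4, circles replicate 3. The dashed line is the last rank of the IDR set in the pooled list and applies to the squares only. HmgZ and HmgD share 1 summit (0.061% in the pooled list), and Ssrp has no pooled point.

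The genes differed widely in the rank of their strongest summit. The strongest summit near HmgZ and HmgD ranked 13 in the pooled list, that of Dsp1 224, that of dre4 2440 and that of D1 5163, while Ssrp had no pooled summit. In replicate 4 the order was the same, with ranks of 11, 223, 2173, 6728 and, for Ssrp, 19477. In replicate 3 the ranks were 13, 247, 2770, 9142 and 20725. So both replicates placed the 6 genes in the same order, with the shared HmgZ and HmgD summit first and Ssrp last. The first place follows from the choice of HmgZ by its signal. The Ssrp ranks belong to different summits, at 23810693 in replicate 4 and at 23807545 in replicate 3.

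HmgZ had the strongest peak of the set. HmgZ (FBgn0010228) lies on 2R at 21697488–21707861 on the minus strand, and HmgD (FBgn0004362) lies at 21701458–21716727 on the plus strand. Their 5′ parts overlap on opposite strands by 6404 bp, while their coding parts are 16927 bp apart. The IDR interval, 21703149–21703688, falls inside that overlap, in an intron of both genes. It carried 2 summits. The stronger, at 21703360, had a signal of 989.4 and rank 13, and lay 530 bp upstream of the HmgZ TSS at 21702830, from which 2 of the 4 HmgZ transcripts start. The weaker, at 21703561, had a signal of 647.0 and rank 48, lay 731 bp upstream of that TSS, and reached 65.4% of the stronger signal.

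The same peak lay well inside HmgD. Its stronger summit was 1902 bp and its weaker summit 2103 bp downstream of the outermost HmgD TSS at 21701458, in the long first intron. It therefore counts to HmgZ by TSS distance and to HmgD by position only. These lists give binding near both genes and hold no measure of which transcript, if any, responds.

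**Figure D2:**
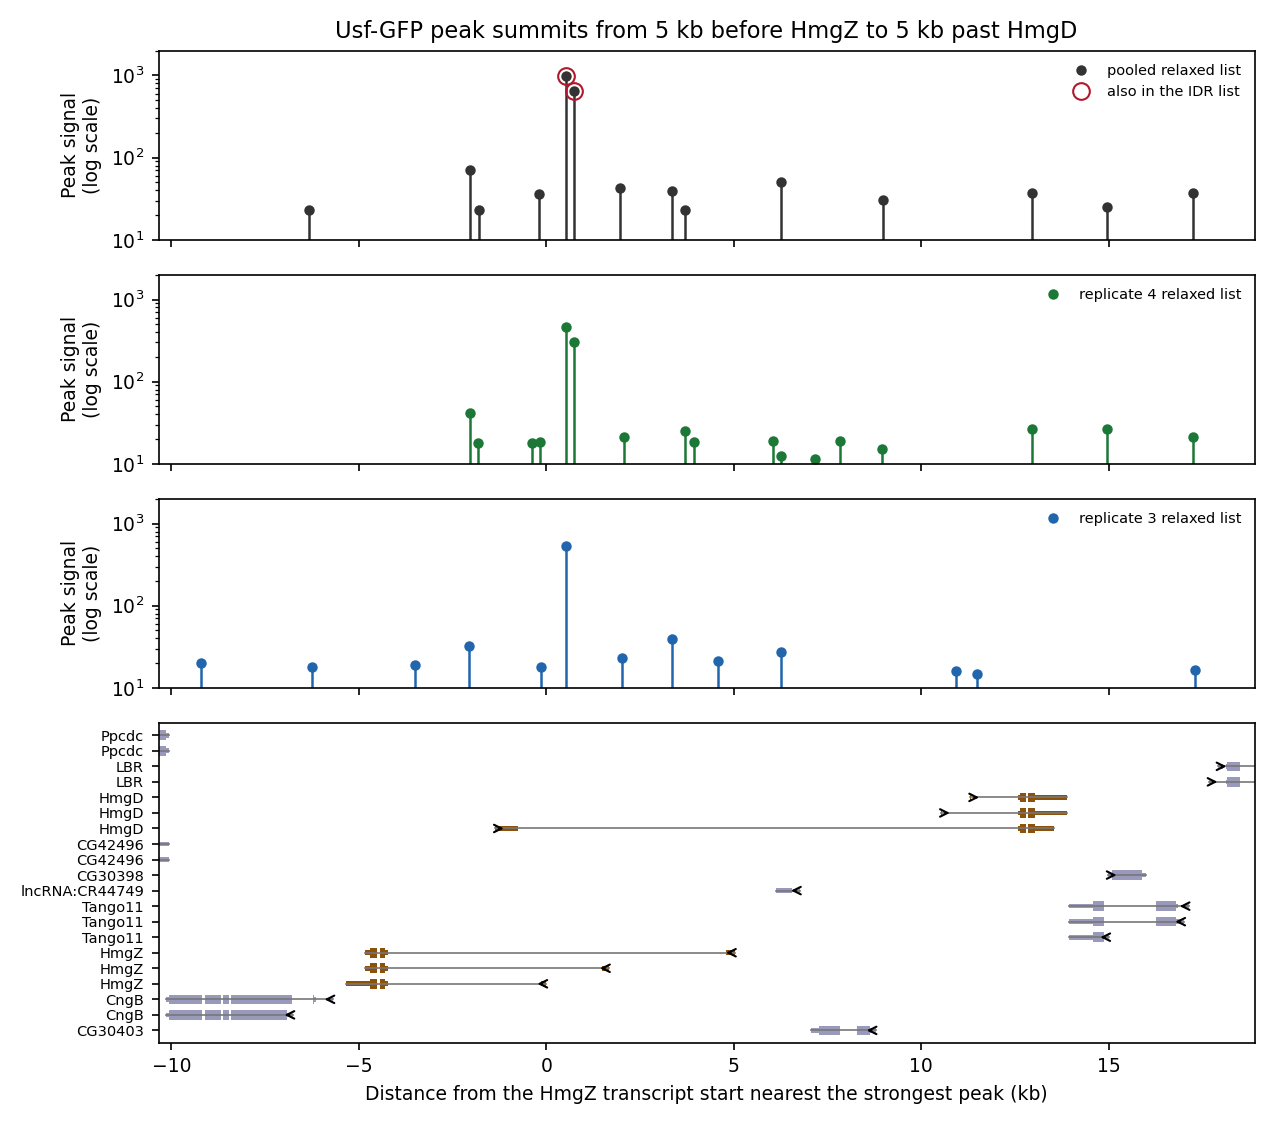
Signal (log axis) of every summit from 5 kb outside HmgZ to 5 kb outside HmgD in the pooled, replicate 4 and replicate 3 lists, by distance in kb from the HmgZ TSS nearest the strongest peak. Red circles mark IDR summits; in the gene panel brown is HmgZ and HmgD, thick bars are coding exons and arrows are TSSs. The IDR pair at 989.4 and 647.0 stands over pooled summits of 70.3 or less.

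The replicates agreed on the stronger HmgZ summit to the base. Replicates 4 and 3 each placed it at 21703362, with a signal of 461.0 (rank 11) in replicate 4 and 532.8 (rank 13) in replicate 3, a shift of 0 bp. A shift of 0 bp was found at 47 of the 2615 IDR peaks that had a summit within 100 bp in both replicates (1.80%). The median shift over those peaks was 25.0 bp, with quartiles of 10.0 and 48.0 bp. Among the strongest 100 IDR peaks, 5 of the 99 matched peaks had no shift and the median was 15.0 bp. The exact coincidence at HmgZ is thus at the low end of what strong peaks show.

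The weaker HmgZ summit appeared in 1 replicate. In replicate 4 it lay at 21703561, the same base as in the IDR list, with a signal of 300.2 and rank 43, or 65.1% of its stronger neighbour. In replicate 3 the interval was 510 bp long and carried the stronger summit alone, 199 bp away. Listing 2 summits in 1 interval is rare: it held for 9 of 2758 IDR intervals (0.326%), all 9 among the 99 strongest intervals, and for 3 of 29243 and 3 of 28456 intervals in replicates 4 and 3. The HmgZ interval, at 540 bp, was also among the widest, since 3 of the 2758 IDR intervals (0.109%) were at least as wide, itself included. The gap between its summits equalled the median gap over the 9 intervals.

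Around this pair the relaxed lists put a scatter of far weaker summits. From 5 kb outside HmgZ to 5 kb outside HmgD the pooled list held 14 summits, the pair included, and the other 12 had signals of 22.8 to 70.3. The strongest of the 12, at 21700807, lay 651 bp upstream of the outermost HmgD TSS, in HmgZ intron sequence. Its pooled signal of 70.3, at rank 2823, was just under the lowest IDR signal of 71.3. It was present in both replicates, at 21700793 in replicate 4 (signal 41.2, rank 2178) and at 21700768 in replicate 3 (signal 32.1, rank 3713), a shift of 25 bp. HmgD thus had a TSS-proximal summit that recurred in both replicates and missed the IDR list by a small margin.

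Of the 14 pooled summits, 6 were matched in both replicates, and their shifts were 0, 2, 19, 25, 44 and 55 bp. The 2 bp shift was at a summit of 49.9 at 21709099, in an exon of the non-coding gene lncRNA:CR44749, which lies inside the long HmgD intron. There the replicate signals differed in standing, with 12.4 (rank 23854) in replicate 4 and 27.0 (rank 4896) in replicate 3. The 19 bp shift was 185 bp downstream of the HmgZ TSS at 21702830, with a pooled signal of 36.3. The 55 bp shift was 305 bp upstream of the HmgZ TSS at 21704501, with a pooled signal of 42.8. The 44 bp shift lay past the HmgD end, between LBR and Tango11, with a pooled signal of 37.2. A close match in position therefore occurred at weak summits as well as at the strong one.

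The remaining 8 pooled summits of the locus, the weaker summit of the pair among them, had no summit within 100 bp in at least 1 replicate. A pooled summit of 37.5 in HmgD coding exon sequence, at 21715785, was present in replicate 4 alone within that distance, with a signal of 26.8. One at 21711811 in the HmgD intron, near CG30403, was likewise matched in replicate 4 only, with a signal of 15.0. Conversely, the pooled summit at 21706192, with a signal of 39.6, matched a replicate 3 summit 2 bp away, and the nearest in replicate 4 was 350 bp off. A replicate 3 summit at 21713759, 377 bp upstream of the HmgD TSS at 21714136, had a signal of 15.9 and no counterpart in the pooled list. Over all 14 summits, the 6 matches make 42.9%, beside 94.5% of IDR peaks and 24.2% of pooled peaks outside the IDR list.

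**Figure D3:**
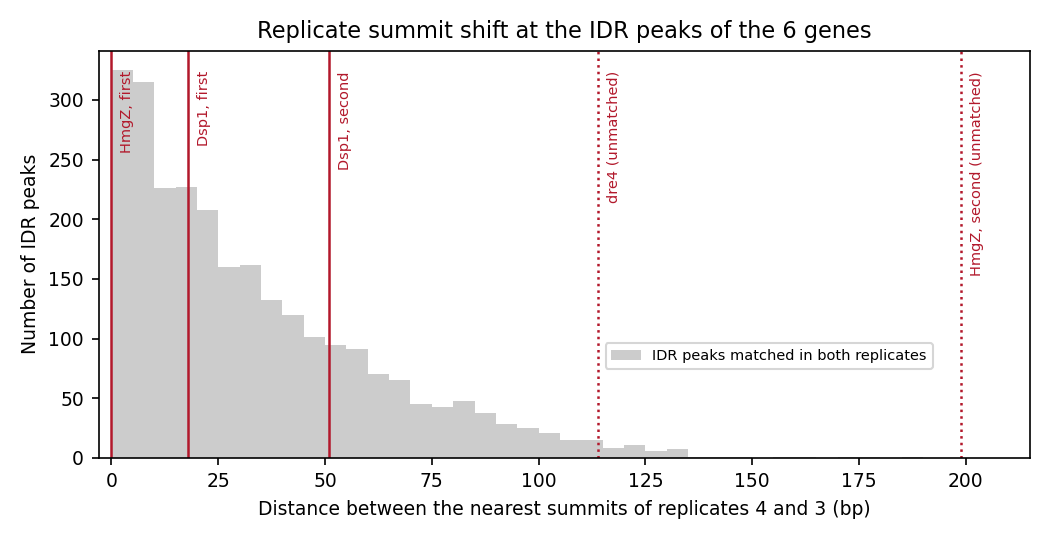
Distance in bp between the nearest summits of replicates 4 and 3. Grey bars count the 2615 IDR peaks with a summit within 100 bp of the IDR summit in both replicates; red lines mark the 5 IDR summits at the genes, dotted where a replicate had no summit within 100 bp. HmgZ sits at 0 and 199 bp, Dsp1 at 18 and 51 bp, and dre4 at 114 bp.

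Dsp1 had a pair of separate IDR peaks, a strong one before the gene and a weak one inside it. Dsp1 (FBgn0278608) lies on X at 16333612–16340624 on the plus strand. The strong summit at 16333006 had a signal of 319.0 and rank 224, with 150.5 (rank 223) in replicate 4 and 167.0 (rank 247) in replicate 3. It lay 606 bp upstream of the outermost Dsp1 TSS, where 6 of its 7 transcripts start, in an intron of CG9921, and within 1 kb of a CG9921 TSS as well. The replicate summits were 18 bp apart. The weak summit at 16335373 had a signal of 81.7 and rank 2321, in a Dsp1 intron, 811 bp upstream of the internal TSS at 16336184. It stood at 48.2 (rank 1738) in replicate 4 and 31.5 (rank 3806) in replicate 3, with summits 51 bp apart. Besides these, the pooled list held 1 summit in the Dsp1 window, with a signal of 22.7, in a CG9921 coding exon. It was matched in replicate 4 at 16331950, with a signal of 23.4 (rank 5160), and had no replicate 3 summit within 100 bp.

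The genes of the FACT complex did not look alike. dre4 (FBgn0002183), which lies on 3L at 1871574–1876312 on the minus strand, had an IDR summit at 1876544, 232 bp upstream of its only TSS, with a signal of 78.4 and rank 2440. In replicate 4 the summit was at 1876543 with a signal of 41.2 (rank 2173). In replicate 3 it was at 1876657 with a signal of 39.7 (rank 2770), 114 bp away and inside the 3′ UTR of the upstream gene CG13937. The dre4 signal was close above the lowest IDR signal of 71.3, and the replicate 3 rank was just past 2767, the size of the IDR list. The pooled list also held a summit of 26.4 in a dre4 coding exon and summits of 39.8 and 25.4 in the 3′ UTR of CG12025, past the gene's end.

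Ssrp (FBgn0010278), on 2R at 23806361–23809004 on the minus strand, had no IDR or pooled summit within 5 kb. Its nearest pooled summit lay 5113 bp outside the gene with a signal of 26.0. Replicate 4 held 1 summit in the window, at 23810693, with a signal of 13.5 (rank 19477), in a coding exon of CG5543. Replicate 3 held a summit nearby, at 23810713, with a signal of 13.3 (rank 25968), and another of 14.8 (rank 20725) in an Ssrp coding exon. None lay within 1 kb of the Ssrp TSS. Peaks are listed only above a minimum signal, 22.1 in the pooled list, so weaker enrichment at Ssrp could not be seen.

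D1 (FBgn0000412), on 3R at 9238083–9240654 on the minus strand, had no IDR summit within 5 kb and a single pooled summit, at the far end of the gene. It lay at 9238057, 26 bp past the annotated gene end, with a signal of 43.6 and rank 5163, and within 1 kb of a TSS of pum, the gene of the translational repressor Pumilio. The nearest replicate summits were in the D1 3′ UTR, at 20.8 (rank 6728) in replicate 4 and 20.4 (rank 9142) in replicate 3. They were 67 bp apart, but the replicate 4 summit was 144 bp from the pooled one, outside the matching distance. Near the D1 start, replicate 4 alone had a summit, 176 bp upstream of the outer TSS, with a signal of 12.1 (rank 24852).

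**Figure D4:**
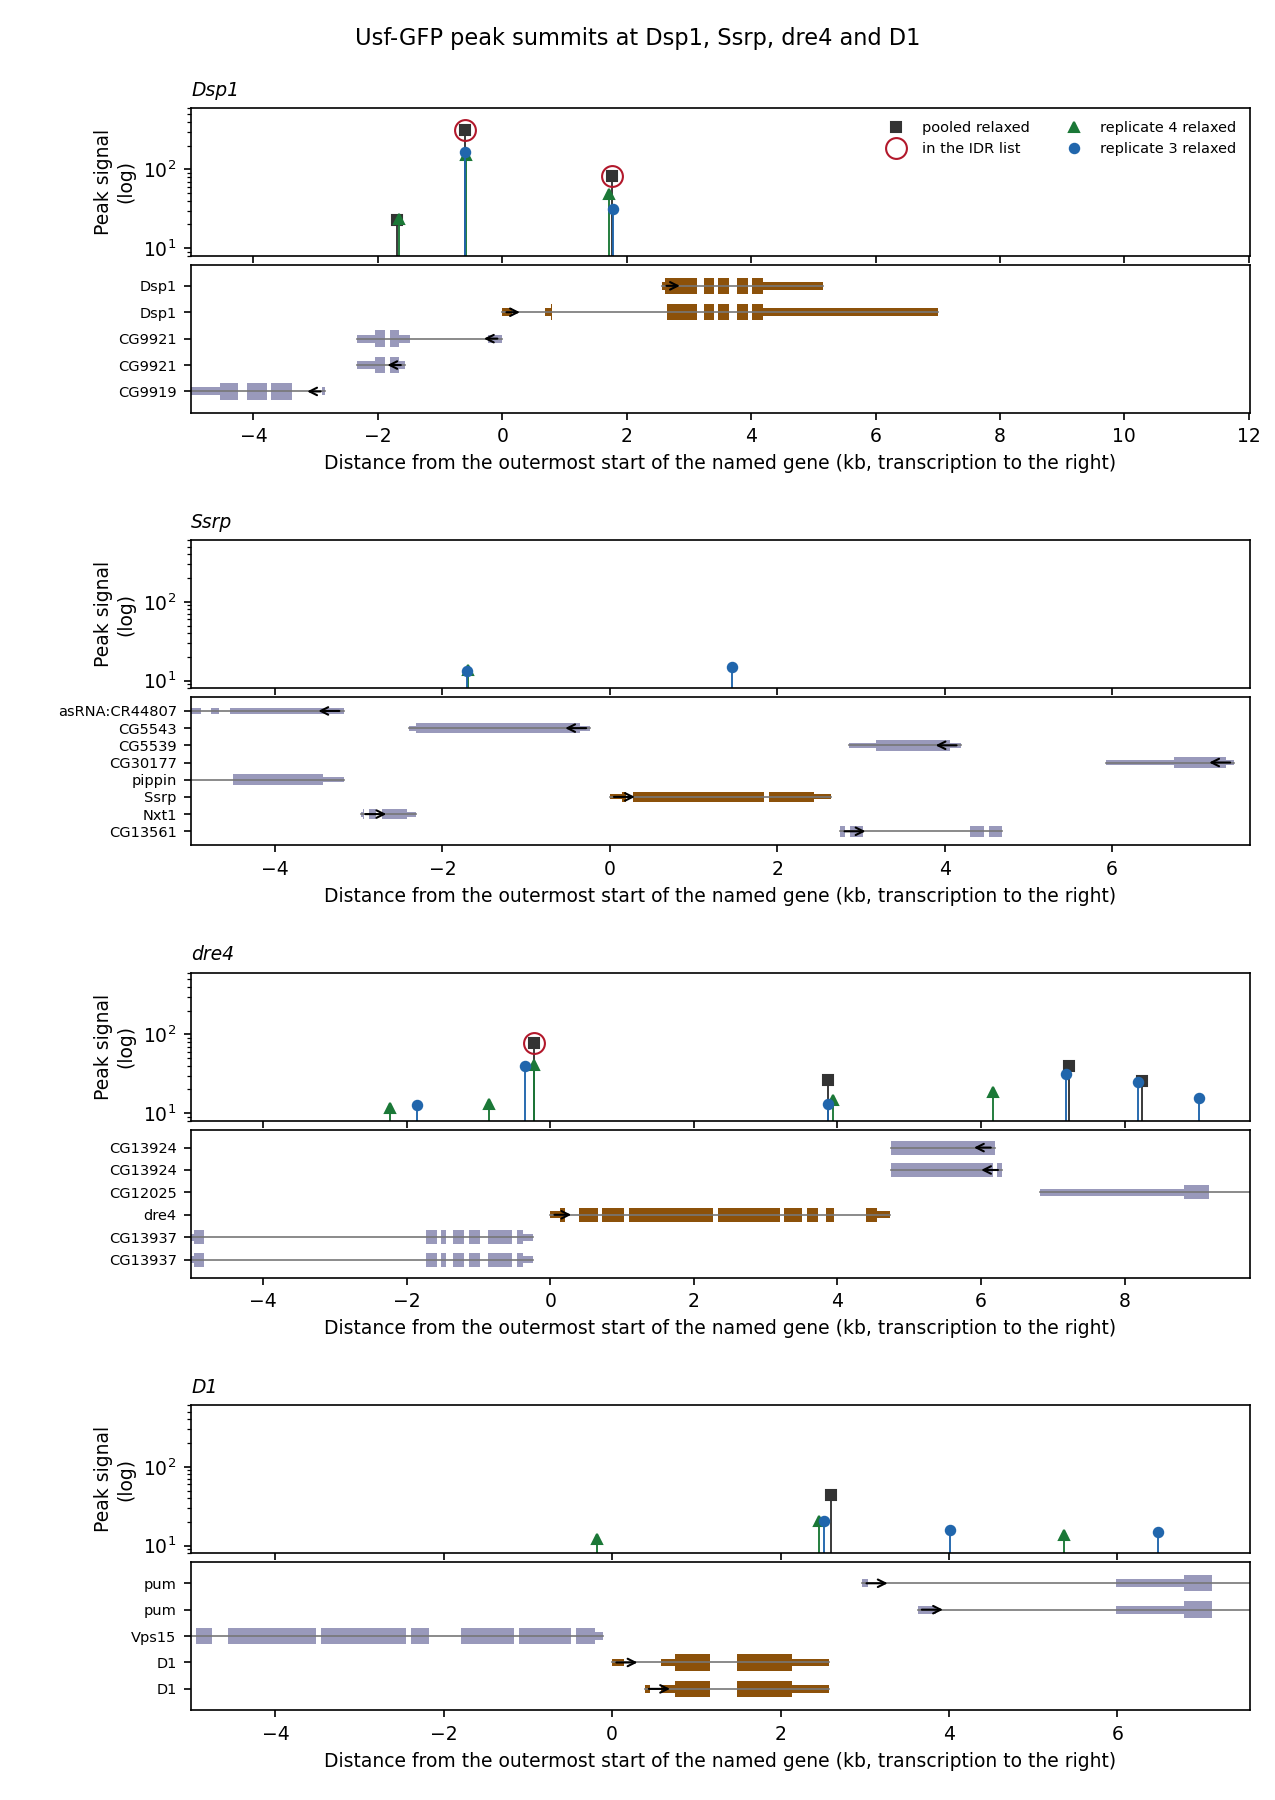
Summit signal (log axis) within 5 kb of Dsp1, Ssrp, dre4 and D1, by distance in kb from the outermost TSS of each gene with its transcription to the right. Symbols are the pooled, replicate 4 and replicate 3 lists, red circles are IDR summits, brown gene models are the named genes and blue ones their neighbours. Dsp1 has 2 IDR summits (319.0 and 81.7), dre4 has 1 (78.4), and Ssrp and D1 have none.

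Counted once each, the windows of all 6 genes held 5 IDR, 22 pooled, 29 replicate 4 and 26 replicate 3 summits in 86.2 kb of sequence. Taking the strongest 2767 peaks of replicate 3 alone in place of the IDR list left 2 summits, at HmgZ and Dsp1, and those of replicate 4 alone gave 6. The IDR count is 5.8 summits per 100 kb, beside 2.08 over the chromosome arms, and 25.5 pooled summits beside 16.0. Of the 5 IDR summits, 4 were intronic, the pair in the HmgZ interval among them, and 1 intergenic, and none lay in an exon. Of the 22 pooled summits, 12 were intronic, 3 intergenic, 3 in coding exons, 3 in UTRs (2 of them 3′) and 1 in a non-coding exon. Shares of these features over the whole lists were not computed, so the counts have no background here. Replicate 3 summits in these windows had a replicate 4 summit within 100 bp in 11 of 26 cases (42.3%), beside 24.8% in the whole replicate 3 list. For replicate 4 it was 11 of 29 (37.9%), beside 24.1%. The windows lie at genes and one was picked for its peak, so neither density nor recurrence was tested.

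CACGTG was absent from all 5 IDR summits of these genes, searched within 100 bp of each and on both strands. Over the IDR list it was found at 68 of 2767 summits (2.46%), beside 2.80% of coding TSS windows of the same length. The nearest CACGTG lay 3670 and 3744 bp from the HmgZ summits, 436 and 1932 bp from the Dsp1 summits and 498 bp from the dre4 summit, beside a median of 2476 bp for IDR summits on the same arms. The wider pattern CANNTG, which includes CACGTG, was found at 4 of the 5, all but the weaker Dsp1 summit, beside 57.7% of IDR summits and 63.9% of TSS windows. At the stronger Dsp1 summit it was the capitalised CAAATG shown earlier, 32 bp from the summit. At dre4 it was CATTTG, 56 bp from the summit and beyond the stretch shown.

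The promoter element TATCGATA, known as the DRE and bound by the factor Dref, was in none of the 5 windows, beside 2.71% of IDR summits and 6.44% of TSS windows. TTAAAA, a hexamer chosen with earlier results of these data known, was in 3 of the 5, both HmgZ summits and dre4, beside 52.8% of IDR summits and 30.9% of TSS windows. ACAGTG and CGATAG, chosen in the same way, were in none. ACAGTG was at 19.2% of IDR summits and 9.72% of TSS windows, and CGATAG at 8.38% of IDR summits and 14.4% of TSS windows. These 5 windows are too few to set the counts against the shares over the list.

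The HmgZ peak sat in sequence richer in G and C than most IDR summits. Within 50 bp of the summit, GC content was 45.5% at the stronger HmgZ summit, above 88.8% of IDR summits, and 39.6% at the weaker. It was 30.7% at the stronger Dsp1 summit, 39.6% at the weaker Dsp1 summit and 26.7% at dre4. The median over IDR summits was 32.7%, with quartiles of 27.7% and 38.6%, and over pooled summits outside the IDR list it was 43.6%. So dre4 and the stronger Dsp1 summit lay below the IDR median, and the other 3 lay above its upper quartile. The pooled D1 summit, outside the IDR list, had 18.8%, the same as the pooled summit at 21701035 in an HmgZ intron. Both were the most AT-rich of the pooled summits at these genes.

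**Figure D5:**
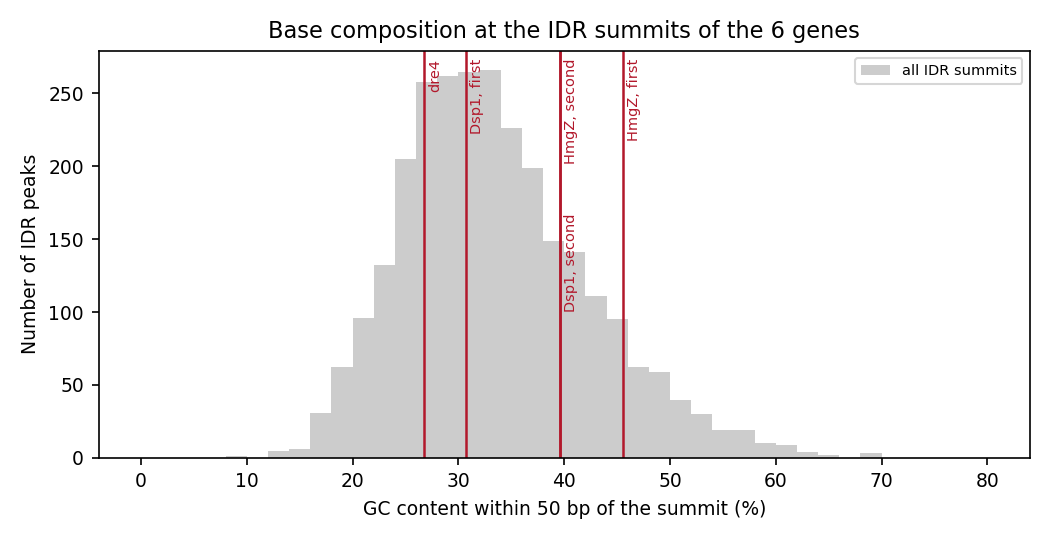
GC content (%) of the sequence within 50 bp of each summit. Grey bars count all 2767 IDR summits, and red lines mark the 5 at the genes: dre4 at 26.7%, Dsp1 at 30.7% and 39.6%, and HmgZ at 39.6% and 45.5%.

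The peaks most like that of HmgZ in strength were taken as those next to it in IDR signal. Only peaks that were a coding gene's strongest within 1 kb of a TSS entered this order. The difference in rank from HmgZ is given in each replicate. Since these peaks were picked by the pooled signal, ranks close to that of HmgZ in the replicates are largely built in. Next above came the peak at Art3, an arginine methyltransferase gene, and mRpS10, a mitochondrial ribosomal protein gene, with a signal of 1031 and rank 10 in both replicates. Above that came the peak at Tcs5 and CHMP2B, with a signal of 1045 and rank 9 in both. Next below came the peak at Adf1, a transcription factor gene, and Dpit47, with a signal of 925.9, rank 15 in replicate 4 and rank 14 in replicate 3. The peak at CG5611 and Mtl followed, with a signal of 871.1, rank 16 in replicate 4 and rank 17 in replicate 3. These 4 peaks differed from HmgZ by 1 to 5 ranks. Each was the strongest peak within 1 kb of a TSS for a pair of coding genes, whereas the HmgZ summit was so for HmgZ alone. Non-coding genes, and coding genes with a stronger peak elsewhere, were not counted in this comparison.

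Related chromatin genes were read in the same way, from lists drawn up with earlier results known, beside the same background of 15.3%. Of 16 further HMG-box genes, 4 carried an IDR summit at a TSS (25.0%), by the same 1 kb limit, and 11 a pooled one (68.8%), beside a pooled background of 48.2%. The strongest was at Sox14, a Sox factor of the ecdysone response, with a signal of 589.7 at rank 56, ranked 65 in replicate 4 and 52 in replicate 3. Sox102F followed with 196.4, then cic, the gene of the repressor Capicua, with 143.2 and Sox100B with 102.1. Of the genes with no IDR summit, tHMG1 and tHMG2, named for testis HMG proteins, shared a pooled summit of 23.5, and TFAM, the mitochondrial HMG-box factor, had one of 29.6.

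Of 16 histone chaperones and partners of FACT, 2 had an IDR summit (12.5%) and 10 a pooled one (62.5%). The IDR summits were at Chd1, a remodeller known from yeast to associate with FACT, with a signal of 226.3 at rank 449, and at yem, which acts with Hira in histone H3.3 deposition, with 113.3. A TSS of Bem46 also lay within 1 kb of the Chd1 summit, and one of Ctl2 within 1 kb of the yem summit. Of the transcription elongation partners, Spt6 and spt4 had pooled summits of 64.7 and 66.0, under the IDR minimum, and Spt5 had none. Of 12 genes of nucleosome remodelling complexes, 3 had an IDR summit (25.0%) and 8 a pooled one (66.7%). The strongest was brm, the ATPase of the fly SWI/SNF complex, with 584.1 at rank 57, ranked 53 in replicate 4 and 64 in replicate 3. Ino80 had 315.9, and mor, another SWI/SNF subunit, had 100.4. Each of these 3 IDR summits was also within 1 kb of another gene's TSS: Arl1 at brm, Aptx at Ino80 and Hel89B at mor.

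Of 14 genes listed with D1 as satellite, heterochromatin or DNA-binding chromatin factors, 6 had an IDR summit (42.9%) and 11 a pooled one (78.6%). Adf1, with 925.9, Trl, the gene of GAGA factor, with 229.7, and BEAF-32, an insulator protein gene, with 103.3, are better known from promoters and insulators than from heterochromatin. Su(var)3-7 had 87.0, prod, whose protein binds satellite DNA as D1 does, had 77.0, and HP4 had 73.8. Except at prod, each of these summits was also within 1 kb of another gene's TSS. The other gene was Dpit47 at Adf1, CG42507 at Trl, asRNA:CR42254 at BEAF-32, Ravus at Su(var)3-7 and CG8209 at HP4. A gene was counted only with a summit within 1 kb of its TSS, so closeness to a TSS is built in. Within that limit, the distance was 33 to 155 bp for 5 of the 6 and 768 bp for Adf1. The lists are small and were not tested.

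The windows have an edge at 5 kb. The pooled summit nearest to it from inside lay 4954 bp from HmgD, with a signal of 22.8, and the nearest from outside lay 5113 bp from Ssrp, with 26.0. The former also lay 984 bp from HmgZ, so the HmgZ window held it in any case. The nearest IDR summit outside lay 6243 bp from HmgZ with a signal of 81.2.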

How the data were processed

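Usf-GFP ChIP-seq of whole embryos was analysed in 2 biological replicates of 1 group. The labels give the antibody target as Usf and describe an antibody against GFP. Fragments were 200 to 800 bp, per the labels. The files used were 4 narrowPeak lists on dm6. Per the deposited sample notes, the 2 replicates shared a control alignment and the relaxed lists were the input of the IDR step. The aligner, its version and the caller were not given in the sources used here, nor the IDR cut-off, nor the scale of the signal that the authors deposited for each peak. The lists on dm3 were not used.

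Genes came from the Ensembl 115 annotation (FlyBase 6.54) and sequence from the Release 6 genome, which share dm6 coordinates; 16217 of 16237 start codons (99.9%) read ATG. Python 3.11.15 scripts with numpy 2.4.6 and pandas 2.3.3 collected summits within 5 kb of each gene, matched summits at 100 bp, and searched motifs within 100 bp of a summit on both strands. Coordinates count from 1. The counting steps were tested on simulated data. A gene's background was all 13968 coding genes. Named genes were the 6 members, genes at their summits, the 2 coding loci next above and below HmgZ in signal, and listed genes with an IDR summit. Genes that share such a summit, by a TSS within 1 kb, are named beside them. Other genes, named with pooled values, were chosen after their values were seen. The members and lists were chosen with earlier results of these data known. No group comparison or significance test was made, and no value has an SD: each is 1 peak in 1 list. spt4 was written Spt4 in the list and matched through a RefSeq synonym. Alternatives were other distances, windows and single replicates.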

Additional observations from a re-analysis of the deposited data

How the results depend on the processing

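The count of 3 genes with an IDR summit at a TSS, by the 1 kb limit, stood beside 2131 of the 13968 coding genes. It fell to 1 (dre4) within 500 bp, beside 1854 coding genes. It was 4 within 2000 bp, with HmgD added, beside 2646 coding genes. With the outermost TSS alone it was 2 (Dsp1 and dre4), beside 1920. It was also 2 (HmgZ and Dsp1), beside 1253, in the stronger part of the IDR list split at its median rank. In that part the chaperone list fell to 1 gene and the D1 list to 2. With the strongest 2767 peaks of a single replicate in place of the IDR list, 2 to 4 genes had a summit at a TSS. The coding genes with one numbered 2112 in replicate 3 and 2155 in replicate 4. Within 5 kb of the 6 genes lay 2 to 6 summits. The value of 2 came from replicate 3, where dre4 ranked 2770, the weaker HmgZ summit was missing and the Dsp1 intron summit ranked 3806. A window of 10000 bp gave 11 IDR and 38 pooled summits. Matching by interval overlap gave 10 matched pairs at HmgZ and HmgD with a median shift of 49.5 bp, against 6 pairs and 22.0 bp. TTAAAA in place of CACGTG, an alternative chosen after seeing the data, gave 3 summits. Over the single replicates the strongest summit stood at 0.038 to 0.046% of the list for HmgZ and HmgD, 0.762 to 0.868% for Dsp1, 7.43 to 9.73% for dre4 and 23.0 to 32.1% for D1. CACGTG stayed at 0 within 50 bp, within 200 bp and in the whole interval. No paired analysis was possible because there was 1 group. Limits: 2 replicates, unknown read depth, and no control library analysed here.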

Other observations

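IDR summits lay in the wider flanks of D1 although none lay within 5 kb. They were found 6459 bp from the gene with a signal of 86.1, at 8889 bp with 88.2, at 10429 bp with 77.7 and at 10632 bp with 135.4. The dre4 flanks held further IDR summits at 6295 bp (82.9), 9327 bp (81.1) and 9981 bp (138.7). The last of these, at rank 1090, was stronger than the summit at the dre4 promoter itself, at rank 2440.

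Among the related genes, pooled signals close under the IDR minimum of 71.3 were found at HP5 (69.1), spt4 (66.0) and Spt6 (64.7). Nlp and Nph, which encode nucleoplasmin-type histone chaperones, shared the same pooled summit of 40.0.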
